A study of Mus musculus with 12 samples.

Results

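The genes described here carry out DNA replication and the S phase of the cell cycle. The list held 38 genes, chosen by name with earlier results of these data known. A probe set annotated to a single symbol measured 36 of them, and 35 passed the filter on dim genes, out of 22180 genes measured in this way and 19152 tested. Rfc4, a clamp loader subunit, shared its probe set with Eif4a2, and Ccne2, an E-type cyclin, shared its own with Ints8, so neither was measured by itself. Gins1, a subunit of the replicative helicase, exceeded the filter of log2 4.61 on 1 array, ranged from 3.90 to 4.73 and was not tested. Rfc3 exceeded it on 7 arrays, and each of the other 34 tested members on all 12.

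The study profiled mouse leukaemias induced with MLL-AF9, a fusion gene that drives acute myeloid leukaemia and that every sample carried. Wild type is the label of leukaemias 73, 75 and 79, and Dnmt3b-knockin, an overexpression of a de novo DNA methyltransferase, is that of leukaemias 81, 83 and 85. Cells of each leukaemia were sorted for c-kit, a receptor tyrosine kinase of blood progenitors, into a positive and a negative fraction. This gave 4 groups of 3 arrays. The promoter of the Dnmt3b allele, the host mice, their age and strain, and whether the leukaemia numbers stand for different mice are not given in the sources used here, so p-values measure the spread between these samples. Titles name bone marrow and the source field names spleen. All levels are log2 values from robust multi-array averaging (RMA), and a difference is the c-kit-positive minus the c-kit-negative value unless another pair is named.

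A replication origin is first licensed, when the origin recognition complex, Cdc6 and Cdt1 load the Mcm2 to Mcm7 helicase, and it fires when Cdc45 and the GINS complex join that helicase. Primase and the polymerases then copy both strands behind it, held by the sliding clamp PCNA, while ribonucleotide reductase and its partner enzymes supply deoxynucleotides. Many of these genes are transcribed under E2F factors when a cell leaves G1, and dividing progenitors of the bone marrow are rich in their RNA.

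Because E2F factors are the textbook regulators of these genes, the promoter windows of the members were searched for E2F-type letters. RefSeq windows (build GRCm38.p6) of 250 bases before to 50 after an annotated start were found for 32 of the 38 genes, as 36 windows. Entries were not found for Gmnn, Mcm4, Gins1, Gins2, Pole and Ccne2. The letters searched on both strands were TTTCCCGC, TTTCGCGC, TTTGCCGC and TTTGGCGC, whose matches may overlap each other. They stood in 11 of the 36 member windows (30.6%) and in 744 of all 32851 windows (2.26%). By role they were found in 7 of 9 licensing genes (Orc1, Cdc6, Cdt1, Mcm3, Mcm5, Mcm6 and Mcm7), in the polymerase genes Pola1 and Pold1, in Rfc3 and in Lig1. None of the 5 nucleotide supply genes had them. The letters CCAAT, searched the same way, stood in 21 of the 36 member windows (58.3%) and in 37.4% of all windows, with no letters shared with the E2F-type matches in the stretches printed here. A match is a run of letters and not a measured site.

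The stretches below are shown because they set helicase and loader genes with E2F-type letters beside the ribonucleotide reductase genes, which had no exact match. Runs that differed by a single letter were not counted, such as gttcccgc in Rrm1 and tctcccgc in Rrm2 (against TTTCCCGC). They run 5′ to 3′ on the gene's strand up to the annotated start, or to the first base of the gene's span where that lies earlier, and E2F-type letters are in capitals.
Mcm5, chr8:75109259-75109467, plus strand: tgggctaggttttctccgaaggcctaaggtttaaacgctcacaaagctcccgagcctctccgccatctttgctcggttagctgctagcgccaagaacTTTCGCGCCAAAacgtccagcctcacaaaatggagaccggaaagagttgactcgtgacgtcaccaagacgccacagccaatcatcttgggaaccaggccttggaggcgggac
Mcm6, chr1:128359706-128359955, minus strand: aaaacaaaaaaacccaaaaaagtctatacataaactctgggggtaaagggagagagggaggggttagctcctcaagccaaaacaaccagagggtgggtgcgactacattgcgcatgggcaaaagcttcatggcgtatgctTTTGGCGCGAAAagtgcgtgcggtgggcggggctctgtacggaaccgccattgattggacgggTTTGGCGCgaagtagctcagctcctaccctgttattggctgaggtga
Rfc3, chr5:151651209-151651458, minus strand: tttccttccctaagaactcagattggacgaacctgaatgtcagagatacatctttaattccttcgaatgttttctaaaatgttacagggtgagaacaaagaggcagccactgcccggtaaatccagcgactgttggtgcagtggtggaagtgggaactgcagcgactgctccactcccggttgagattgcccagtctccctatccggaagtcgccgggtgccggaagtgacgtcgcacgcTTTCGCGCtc
Rrm1, chr7:102441445-102441694, plus strand: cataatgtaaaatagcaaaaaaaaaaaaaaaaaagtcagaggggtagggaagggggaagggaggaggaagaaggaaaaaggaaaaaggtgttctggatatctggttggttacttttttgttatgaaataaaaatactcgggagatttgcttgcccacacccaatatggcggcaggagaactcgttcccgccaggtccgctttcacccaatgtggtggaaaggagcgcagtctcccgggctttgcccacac
Rrm2, chr12:24708004-24708253, plus strand: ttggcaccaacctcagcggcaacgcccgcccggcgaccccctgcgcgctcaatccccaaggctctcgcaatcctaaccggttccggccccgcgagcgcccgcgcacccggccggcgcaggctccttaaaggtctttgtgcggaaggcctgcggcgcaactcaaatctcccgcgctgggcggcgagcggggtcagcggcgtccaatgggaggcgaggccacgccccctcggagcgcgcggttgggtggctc
In Mcm5 a pair of matches on opposite strands overlapped, and in Mcm6 a like pair was followed by another match nearer the start.

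Over the 12 arrays the median of the tested members stood between log2 6.43 and 7.34, at percentiles 65.3 to 84.1 of the genes tested. Single members were dimmer, such as Orc1 with a mean of 5.19. Dnmt3b RNA was not detectably higher under the knock-in label (difference 0.03, 95% confidence interval -0.19 to 0.25, adjusted p = 0.964 with limma), so that label only names groups below. Kit followed the sort, at 2.83-fold in the wild-type and 2.48-fold in the knock-in leukaemias. Summed as a mean over 10 measured genes, myeloid markers lay at 9.08 to 9.65 on the c-kit-positive and 8.39 to 9.18 on the c-kit-negative arrays. Erythroid markers (6 genes) lay at 5.87 to 6.37, B cell markers (7 genes) at 5.69 to 6.33 and T and NK cell markers (8 genes) at 5.20 to 5.65, with the highest B, T and NK values in c-kit-negative cells of the knock-in leukaemias. None of these marker genes was below the filter on all arrays.

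Replication genes were higher in the c-kit-positive cells, led by the ribonucleotide reductase genes Rrm1 and Rrm2, the thymidine kinase gene Tk1 and the ring helicase gene Mcm7. Over both genotypes, 22 of 35 members were higher in c-kit-positive cells and 0 were lower at an adjusted p under 0.05 (limma), against 5.84% of all genes tested that were higher and 2.41% that were lower. The median difference of the members was 0.49, and that of all genes was -0.03. In 29 of 35 members the c-kit-positive array was the higher one in each of the 6 leukaemias, as it was for 13.0% of all genes. The median difference of the members was lowest in leukaemia 79 (0.36), 0.48 in leukaemias 73 and 81, 0.55 in leukaemia 83, 0.60 in leukaemia 75 and highest in leukaemia 85 (0.62). Both fractions of a leukaemia share its number, and with the leukaemia as a replicate block 32 members were higher (13.0% of all genes). Without a block, the count was 8 without leukaemia 73, 8 without leukaemia 75, 14 without leukaemia 79 and 9 without leukaemia 83. It was 23 without leukaemia 81 and 24 without leukaemia 85. With the block it stayed between 26 and 31 when any leukaemia was left out. Mcm7, Mcm10, Pole, Rrm1, Rrm2, Tk1 and Blm passed under all 14 settings tried without combining them. Each of the other 15 lost its call when at least 1 of the leukaemias was left out. Those leave-out fits, also the ones given gene by gene below, had no block. Given the block and all leukaemias, each of the 22 passed the test. In bulk RNA, fewer dividing cells and less RNA per cell cannot be told apart.

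**Figure D1:**
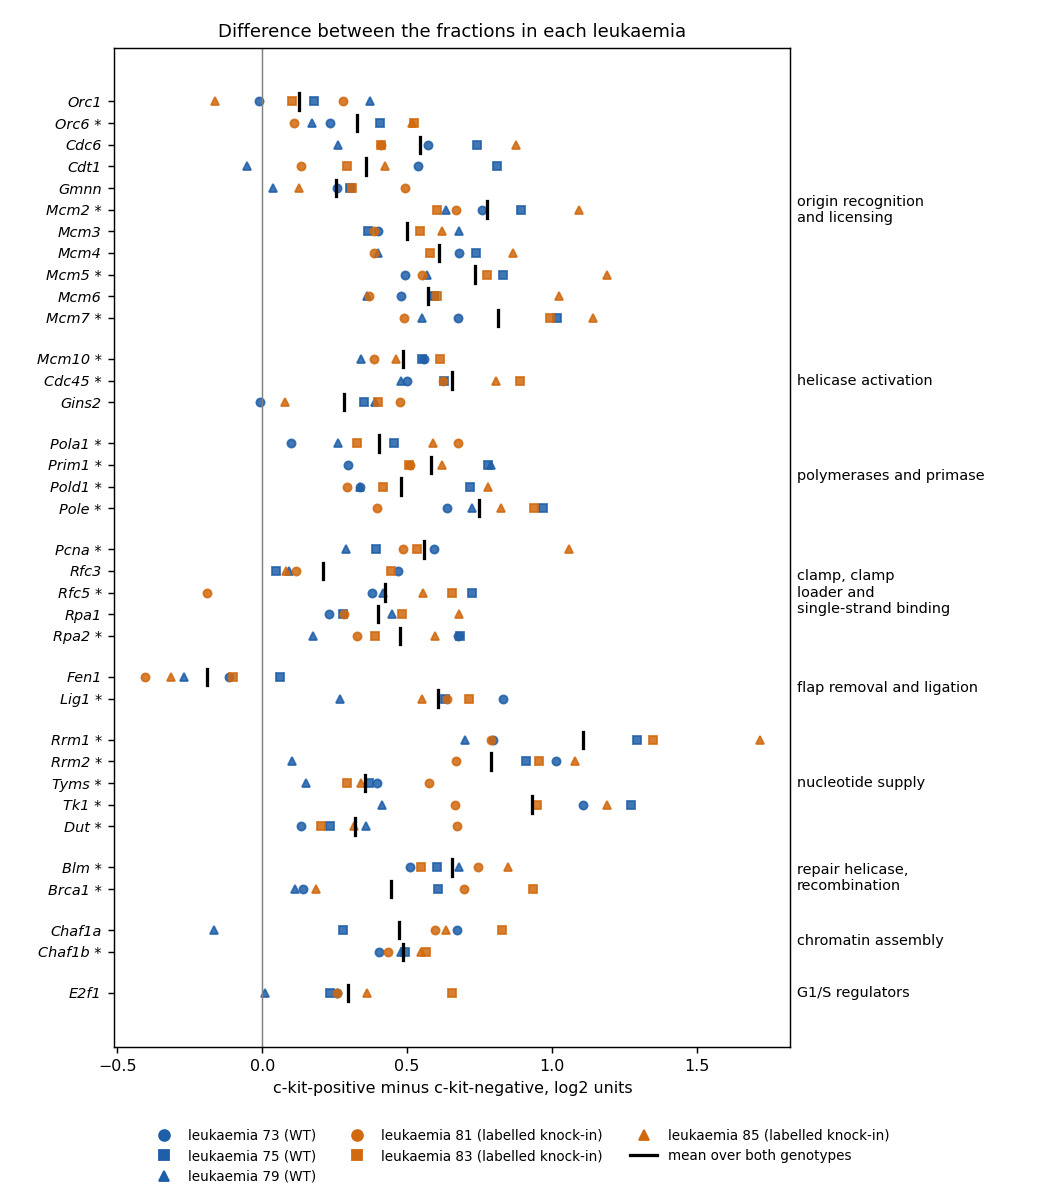
Difference between c-kit-positive and c-kit-negative cells in each of the 6 leukaemias (x axis, log2 units) for the 35 tested members grouped by role. Blue and orange points are wild-type and knock-in leukaemias, bars are means over both genotypes, and an asterisk marks an adjusted p under 0.05; Fen1 is the only member whose mean lies below 0.

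Nucleotide supply was the role with the largest median difference, 0.79, and all 5 of its tested members were higher in c-kit-positive cells. Rrm1 encodes the large, catalytic subunit of ribonucleotide reductase. Its level was 8.69, 8.89 and 9.03 in the c-kit-positive cells of leukaemias 73, 75 and 79, and 8.89, 8.82 and 8.61 in those of leukaemias 81, 83 and 85. It was 7.89, 7.59 and 8.32 in the c-kit-negative cells of leukaemias 73, 75 and 79, and 8.10, 7.47 and 6.89 in those of leukaemias 81, 83 and 85. Every positive array exceeded every negative one, and the lowest values were those of leukaemias 83 and 85. The difference of 1.11 (SE 0.18) was the largest of any member, 2.15-fold (adjusted p = 0.00272, limma). Rrm2 encodes the small subunit, which carries the tyrosyl radical. Its level was 7.63, 7.74 and 7.27 in the c-kit-positive cells of leukaemias 73, 75 and 79, and 7.68, 7.74 and 7.89 in those of leukaemias 81, 83 and 85. It was 6.61, 6.83 and 7.17 in the c-kit-negative cells of leukaemias 73, 75 and 79, and 7.01, 6.79 and 6.81 in those of leukaemias 81, 83 and 85. The fractions did not overlap, although leukaemia 79 differed by only 0.10 between its own arrays. The difference was 0.79 (SE 0.11), 1.73-fold (adjusted p = 0.00101).

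Tk1, the cytosolic thymidine kinase that salvages thymidine, stood at 8.86, 8.90 and 8.27 in the c-kit-positive cells of leukaemias 73, 75 and 79, and 8.49, 8.24 and 8.46 in those of leukaemias 81, 83 and 85. It stood at 7.75, 7.63 and 7.86 in the c-kit-negative cells of leukaemias 73, 75 and 79, and 7.82, 7.29 and 7.27 in those of leukaemias 81, 83 and 85. All positive arrays lay above all negative arrays, and leukaemia 79 again had the smallest gap. The difference of 0.93 (SE 0.13) was 1.91-fold (adjusted p = 0.00101, limma). Tyms, which makes thymidylate from deoxyuridylate, differed by 0.35 (adjusted p = 0.0298), and Dut, which hydrolyses dUTP and so keeps uracil out of DNA, by 0.32 (adjusted p = 0.033). Both calls were lost in several of the settings tried. A second Dut probe set near the filter (mean 4.57, against 7.21 for the one used) had the opposite sign, with differences of -0.13 and -0.36 in the wild-type and knock-in leukaemias against 0.24 and 0.40. With the mean of both probe sets Dut had 0.04 (adjusted p = 0.774, limma).

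**Figure D2:**
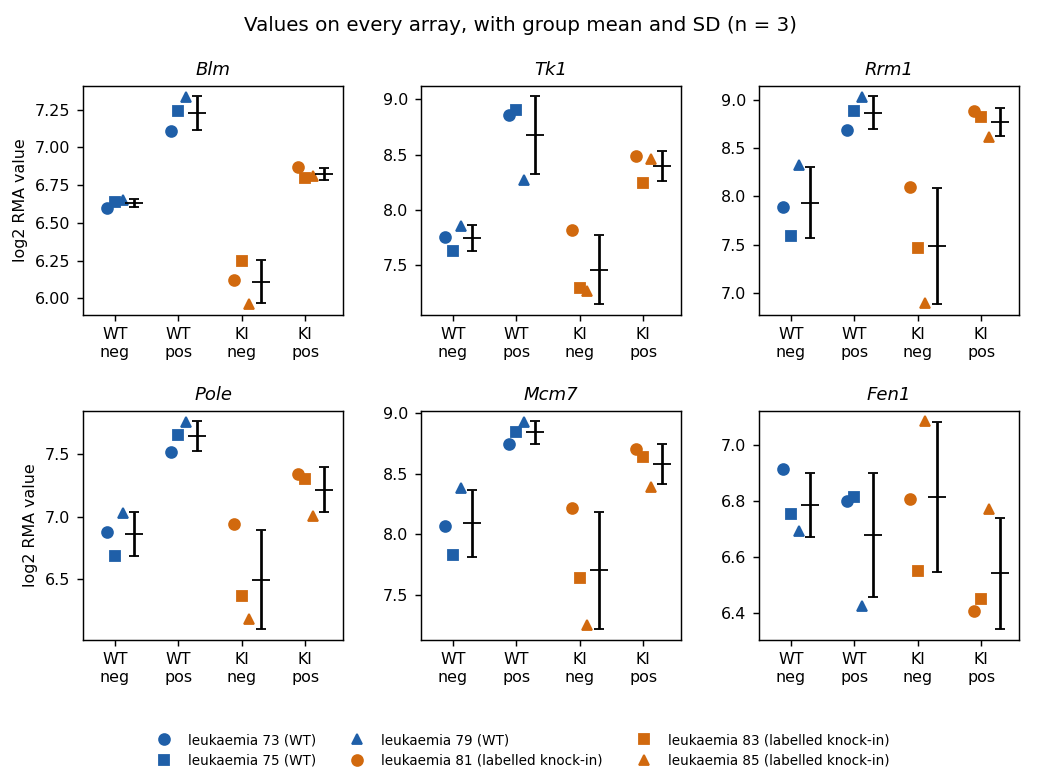
Log2 RMA values (y axis) of 6 members on every array by genotype and fraction (x axis), with group mean and SD (n = 3 arrays). Rrm1, Tk1, Pole, Mcm7 and Blm are higher in each c-kit-positive group than in its negative group, whereas the Fen1 groups overlap.

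Repair helicase and recombination genes followed. Blm encodes the RecQ helicase that dissolves crossed DNA strands and restarts stalled forks. Its level was 7.11, 7.24 and 7.33 in the c-kit-positive cells of leukaemias 73, 75 and 79, and 6.87, 6.80 and 6.81 in those of leukaemias 81, 83 and 85. It was 6.60, 6.64 and 6.65 in the c-kit-negative cells of leukaemias 73, 75 and 79, and 6.12, 6.25 and 5.96 in those of leukaemias 81, 83 and 85. The fractions did not overlap, and arrays of a group lay close together. In the fit without the replicate block, Blm had the smallest adjusted p of the members, 0.000202 (limma), for a difference of 0.66 (SE 0.07), 1.58-fold. Under the block, Cdc45 (6.95e-05) and Mcm2 (6.96e-05) had smaller values than Blm (7.33e-05). Brca1, which guides homologous recombination and protects forks, stood at 6.64, 6.82 and 6.65 in the c-kit-positive cells of leukaemias 73, 75 and 79, and 6.87, 6.88 and 6.52 in those of leukaemias 81, 83 and 85. It stood at 6.50, 6.22 and 6.54 in the c-kit-negative cells of leukaemias 73, 75 and 79, and 6.18, 5.94 and 6.33 in those of leukaemias 81, 83 and 85. Over all arrays its fractions overlapped, and leukaemias 73, 79 and 85 had small gaps of 0.14, 0.11 and 0.19. The difference was 0.45 (SE 0.10), 1.36-fold (adjusted p = 0.0141), and the call was lost without leukaemia 73, 75 or 83 (adjusted p = 0.0553, 0.107 and 0.0951). The replicate block gave Brca1 an adjusted p of 0.00879 (limma).

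Of the 4 polymerase and primase genes, all were higher in c-kit-positive cells, with a median difference of 0.53. Pole encodes the catalytic subunit of polymerase epsilon, which copies the leading strand. Its level was 7.52, 7.65 and 7.76 in the c-kit-positive cells of leukaemias 73, 75 and 79, and 7.34, 7.30 and 7.01 in those of leukaemias 81, 83 and 85. It was 6.88, 6.68 and 7.03 in the c-kit-negative cells of leukaemias 73, 75 and 79, and 6.94, 6.36 and 6.18 in those of leukaemias 81, 83 and 85. Within each genotype the fractions were apart, while the positive array of leukaemia 85 lay just below the negative array of leukaemia 79. The difference was 0.75 (SE 0.12), 1.68-fold (adjusted p = 0.00318, limma). A second Pole probe set (mean 5.97, against 7.05 for the one used) had differences of only 0.02 and 0.07 in the wild-type and knock-in leukaemias, against 0.78 and 0.72, so the size of the Pole difference depended on the probe set. With the mean of both it was 0.40 (adjusted p = 0.00982). Prim1, the catalytic primase subunit that lays down RNA primers, differed by 0.58 (adjusted p = 0.0305). Pold1, the catalytic subunit of polymerase delta on the lagging strand, differed by 0.48 (adjusted p = 0.0281), and Pola1, which extends the primers, by 0.40 (adjusted p = 0.0276). The calls of Prim1, Pold1 and Pola1 were lost without leukaemia 73, 75 or 83, and those of Prim1 and Pola1 also without leukaemia 79. The replicate block gave Prim1, Pold1 and Pola1 adjusted p = 0.000369, 0.00182 and 0.00276 (limma).

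Origin recognition and licensing had 11 tested members, of which 4 were higher (Orc6, Mcm2, Mcm5 and Mcm7) and 0 lower, with a median of 0.55. Mcm7, a subunit of the ring helicase, stood at 8.75, 8.85 and 8.93 in the c-kit-positive cells of leukaemias 73, 75 and 79, and 8.70, 8.64 and 8.39 in those of leukaemias 81, 83 and 85. It stood at 8.07, 7.83 and 8.38 in the c-kit-negative cells of leukaemias 73, 75 and 79, and 8.21, 7.64 and 7.25 in those of leukaemias 81, 83 and 85. All positive arrays lay above all negative ones, but the positive array of leukaemia 85 only just above the negative array of leukaemia 79. The difference was 0.81 (SE 0.14), 1.76-fold (adjusted p = 0.0049, limma). Mcm5, another subunit of the ring, stood at 9.37, 9.45 and 9.42 in the c-kit-positive cells of leukaemias 73, 75 and 79, and 9.52, 9.40 and 9.00 in those of leukaemias 81, 83 and 85. It stood at 8.87, 8.62 and 8.85 in the c-kit-negative cells of leukaemias 73, 75 and 79, and 8.97, 8.62 and 7.81 in those of leukaemias 81, 83 and 85. All positive arrays lay above all negative ones, the negative array of leukaemia 85 lying far below the rest. Its difference was 0.73 (SE 0.16), 1.66-fold (adjusted p = 0.0152), with adjusted p = 0.0662, 0.104, 0.053 and 0.0684 without leukaemia 73, 75, 79 or 83. The replicate block gave Mcm5 an adjusted p of 0.000175 (limma).

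The other ring subunits had differences of 0.50 to 0.78: Mcm2 (0.78, adjusted p = 0.0369 with limma) passed the test, whereas Mcm4 (0.61, 0.051), Mcm6 (0.57, 0.0905) and Mcm3 (0.50, 0.0804) did not. Cdc6, a loading factor, had 0.55 (adjusted p = 0.0939), and Cdt1, its partner, 0.36 (adjusted p = 0.189). Gmnn, which encodes the Cdt1 inhibitor geminin, had 0.26 (adjusted p = 0.0652). Of the origin recognition complex, Orc6 was higher by 0.33 (adjusted p = 0.0272), and the largest subunit, Orc1, had 0.13 (adjusted p = 0.366), the smallest positive difference of any member. With the replicate block, 10 of these 11 genes passed the test, Orc1 being the exception (adjusted p = 0.293).

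Helicase activation had 3 tested members. Mcm10, which helps the loaded helicase to open DNA, stood at 6.75, 6.72 and 6.82 in the c-kit-positive cells of leukaemias 73, 75 and 79, and 6.68, 6.77 and 6.54 in those of leukaemias 81, 83 and 85. It stood at 6.20, 6.17 and 6.48 in the c-kit-negative cells of leukaemias 73, 75 and 79, and 6.29, 6.16 and 6.08 in those of leukaemias 81, 83 and 85. The fractions did not overlap in either genotype or over all arrays. The difference was 0.49 (SE 0.08), 1.40-fold (adjusted p = 0.00282, limma). Cdc45, which completes the active helicase, stood at 6.88, 6.83 and 7.09 in the c-kit-positive cells of leukaemias 73, 75 and 79, and 7.14, 7.12 and 6.61 in those of leukaemias 81, 83 and 85. It stood at 6.39, 6.20 and 6.61 in the c-kit-negative cells of leukaemias 73, 75 and 79, and 6.52, 6.23 and 5.81 in those of leukaemias 81, 83 and 85. Leukaemia 85 was the lowest in both fractions, and its positive array met the level of the highest negative array, that of leukaemia 79. The difference was 0.65 (SE 0.13), 1.57-fold (adjusted p = 0.00977), and the call was lost without leukaemia 73, 75 or 83 (adjusted p = 0.0579, 0.061 and 0.0625). The replicate block gave Cdc45 an adjusted p of 6.95e-05 (limma). Gins2, a GINS subunit, had 0.28 (adjusted p = 0.161, and 0.0282 with the replicate block).

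Among clamp, clamp loader and single-strand binding genes, 3 of 5 were higher and 0 lower. Rpa2 encodes the middle subunit of the protein that coats single-stranded DNA. Its level was 7.30, 7.24 and 7.20 in the c-kit-positive cells of leukaemias 73, 75 and 79, and 6.96, 6.98 and 6.99 in those of leukaemias 81, 83 and 85. It was 6.62, 6.56 and 7.03 in the c-kit-negative cells of leukaemias 73, 75 and 79, and 6.63, 6.60 and 6.40 in those of leukaemias 81, 83 and 85. Within each genotype the fractions were apart, and over all arrays they crossed only through the high negative array of leukaemia 79. The difference was 0.47 (SE 0.09), 1.39-fold (adjusted p = 0.0056, limma), with adjusted p = 0.0509 without leukaemia 73. The replicate block gave Rpa2 an adjusted p of 0.00181. Pcna, the sliding clamp, was higher by 0.56 (adjusted p = 0.0282), and Rfc5, a subunit of the loader that opens the clamp, by 0.42 (adjusted p = 0.0405). Rpa1, the large subunit of the single-strand binding protein, had 0.40 (adjusted p = 0.0552, and 0.00236 with the replicate block). Rfc3, a dim loader subunit, had 0.21 (adjusted p = 0.157, and 0.0918 with the replicate block).

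The remaining roles were small. Lig1, the ligase that seals Okazaki fragments, stood at 7.84, 7.57 and 7.97 in the c-kit-positive cells of leukaemias 73, 75 and 79, and 7.95, 7.90 and 7.36 in those of leukaemias 81, 83 and 85. It stood at 7.01, 6.94 and 7.70 in the c-kit-negative cells of leukaemias 73, 75 and 79, and 7.31, 7.18 and 6.81 in those of leukaemias 81, 83 and 85. Leukaemia 79 had a high negative array, which overlapped the positive range. The difference was 0.60 (SE 0.15), 1.52-fold (adjusted p = 0.0282, limma). Without leukaemia 73, 75 and 83 the adjusted p was 0.140, 0.0994 and 0.118, and the replicate block gave Lig1 0.000315. Fen1, the nuclease that trims the flaps before ligation, was 6.80, 6.82 and 6.42 in the c-kit-positive cells of leukaemias 73, 75 and 79, and 6.41, 6.45 and 6.77 in those of leukaemias 81, 83 and 85. It was 6.92, 6.75 and 6.69 in the c-kit-negative cells of leukaemias 73, 75 and 79, and 6.81, 6.55 and 7.09 in those of leukaemias 81, 83 and 85. The Fen1 ranges overlapped, and the difference was -0.19 (95% confidence interval -0.43 to 0.05, adjusted p = 0.321). A second, dimmer Fen1 probe set (17362609, mean 5.29, against 6.71 for the one used) had positive minus negative differences of 0.43 and 0.44 in the wild-type and knock-in leukaemias, so the probe sets of this gene disagreed in sign. Among the other members with a second probe set, that of Rpa1 (mean 5.01) had differences of 0.07 and -0.12, and that of Rrm2 (mean 3.36) lay below the filter on dim genes. With the mean of both probe sets Rrm2 had 0.38 (adjusted p = 0.0108, limma).

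Chromatin assembly factor 1 places histones on new DNA, and Chaf1b encodes its middle subunit. Chaf1b stood at 7.34, 7.53 and 7.65 in the c-kit-positive cells of leukaemias 73, 75 and 79, and 7.52, 7.59 and 7.27 in those of leukaemias 81, 83 and 85. It stood at 6.94, 7.04 and 7.17 in the c-kit-negative cells of leukaemias 73, 75 and 79, and 7.09, 7.03 and 6.72 in those of leukaemias 81, 83 and 85. All positive arrays exceeded all negative arrays, and the 6 gaps were close together, between 0.40 and 0.56. The difference was 0.49 (SE 0.09), 1.40-fold (adjusted p = 0.00699, limma), with adjusted p = 0.0556 without leukaemia 75. The replicate block gave Chaf1b an adjusted p of 0.000276. The large subunit gene Chaf1a had 0.47 (adjusted p = 0.0757, and 0.00483 with the replicate block). E2f1, the transcription factor of the G1 to S transition, stood at 6.89, 6.98 and 6.98 in the c-kit-positive cells of leukaemias 73, 75 and 79, and 7.24, 7.14 and 6.60 in those of leukaemias 81, 83 and 85. It stood at 6.63, 6.74 and 6.98 in the c-kit-negative cells of leukaemias 73, 75 and 79, and 6.99, 6.48 and 6.24 in those of leukaemias 81, 83 and 85. The E2f1 ranges overlapped widely, and the difference of 0.30 (SE 0.14) did not pass the test (adjusted p = 0.209, and 0.0151 with the replicate block).

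Set side by side, the median differences were 0.79 for nucleotide supply, 0.55 for repair, 0.55 for licensing and 0.53 for polymerases and primase. The nucleotide supply median was above the licensing median in 5 of 6 leukaemias, above the polymerase median in 5 and above the repair median in 4. Leukaemia 79 was an exception each time, joined by leukaemia 81 for repair. In leukaemia 79 the nucleotide supply median was 0.36, against 0.37 for licensing, 0.53 for polymerases and 0.40 for repair. These role medians rest on 5, 11, 4 and 2 genes, and no test was made between roles. Members with E2F-type letters and those without had nearly the same median difference, 0.50 (11 genes, 5 of them higher by the test) and 0.48 (20 genes, 16 higher).

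Within each genotype, the same direction was seen with fewer calls. In wild-type leukaemias 2 of 35 members, Tk1 (0.93, adjusted p = 0.0412) and Blm (0.60, adjusted p = 0.0182, limma), were higher in c-kit-positive cells and 0 were lower, against 0.397% of all genes that were higher and 0.371% that were lower. The median was 0.48 (all genes -0.03), and in 22 of 35 members the fractions did not overlap, all with the positive cells higher (14.5% of all genes). With the replicate block 21 members were higher (7.96% of all genes). The count was 0 without leukaemia 73 or 75 and 3 without leukaemia 79. It was 1 without leukaemia 83, 9 without leukaemia 81 and 14 without leukaemia 85, whose arrays enter this comparison only through the shared estimate of the spread.

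Under the knock-in label 7 of 35 members were higher, Mcm7, Mcm10, Rrm1, Rrm2, Tk1, Blm and Brca1, and 0 were lower, against 1.13% of all genes that were higher and 0.752% that were lower (limma). Rrm1 had 1.28 (adjusted p = 0.0181), Rrm2 0.90 (adjusted p = 0.0089), and Blm 0.71 (adjusted p = 0.00331). The median was 0.53 (all genes -0.02), and the fractions did not overlap in 21 of 35 members (7.24% of all genes). With the replicate block 28 members were higher (5.95% of all genes). The count was 3 without leukaemia 73, 4 without leukaemia 75 and 5 without leukaemia 79. It was 7 without leukaemia 81, 1 without leukaemia 83 and 4 without leukaemia 85.

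Whether the c-kit difference itself depended on genotype was tested as an interaction. It was not detectable for any member: limma called 0 of 35 with and without the replicate block, and 0% of all genes. At an unadjusted p under 0.05 there were 0 members, against 1.21% of all genes with a larger and 1.02% with a smaller difference under the knock-in label. The median interaction was 0.07 and the members ranged from -0.17 to 0.43. For Rrm1 it was 0.35 with a 95% confidence interval of -0.41 to 1.12, and for Chaf1a, the highest, 0.43 (-0.23 to 1.08). Both intervals are wide enough to hold differences as large as the c-kit effect itself, so similar effects are not shown.

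No member passed the test between genotypes, and most had slightly lower values under the knock-in label (27 of 35 in c-kit-positive and 32 of 35 in c-kit-negative cells, where 8937 and 9691 of the 19152 genes tested did). In c-kit-positive cells 0 of 35 passed (limma, against 0.141% of all genes), 0 were higher and 3 lower at an unadjusted p under 0.05 (3.03% and 6.86% of all genes), and the median was -0.07. In c-kit-negative cells 0 of 35 passed (0.0627% of all genes), 0 were higher and 1 lower at an unadjusted p under 0.05 (2.33% and 3.76% of all genes), and the median was -0.17. Over both fractions 0 of 35 passed (0.0261% of all genes), 0 were higher and 4 lower at an unadjusted p under 0.05 (8.37% of all genes in either direction), and the median was -0.10. The replicate block also called 0 members in each, and 0.120%, 0.0627% and 0.178% of all genes. The median in c-kit-positive cells was 0.04 without leukaemia 85 and between -0.13 and -0.02 without any other.

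Blm stood out by its values. Its positive arrays under the knock-in label, 6.80 to 6.87, lay below the wild-type range of 7.11 to 7.33, and its negative arrays, 5.96 to 6.25, lay below 6.60 to 6.65. The knock-in minus wild-type difference was -0.40 (95% confidence interval -0.62 to -0.19) in c-kit-positive and -0.52 (-0.74 to -0.31) in c-kit-negative cells. Over both fractions it was -0.46 (SE 0.09, adjusted p = 0.206 with limma and 0.0518 with the replicate block), so Blm did not pass over all genes. Its groups in c-kit-positive cells did not overlap, as for 9.88% of all genes that were lower, and 4 members shared this (Mcm7, Pole, Rpa2 and Blm). In c-kit-negative cells 3 did (Pola1, Dut and Blm, with 4.66% of all genes).

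Pole had a difference of -0.43 in c-kit-positive cells (95% confidence interval -0.80 to -0.05) and -0.40 over both fractions (adjusted p = 0.484, limma). Its second probe set had -0.08 in positive and -0.13 in negative cells. Rpa2 had -0.23 over both (adjusted p = 0.538) and Tk1 -0.28 (adjusted p = 0.586). For the licensing genes the medians were -0.11 in positive and -0.20 in negative cells, and for nucleotide supply -0.04 and -0.13. Rrm2 was the only member above 0.10 over both fractions (0.11, adjusted p = 0.810).

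**Figure D3:**
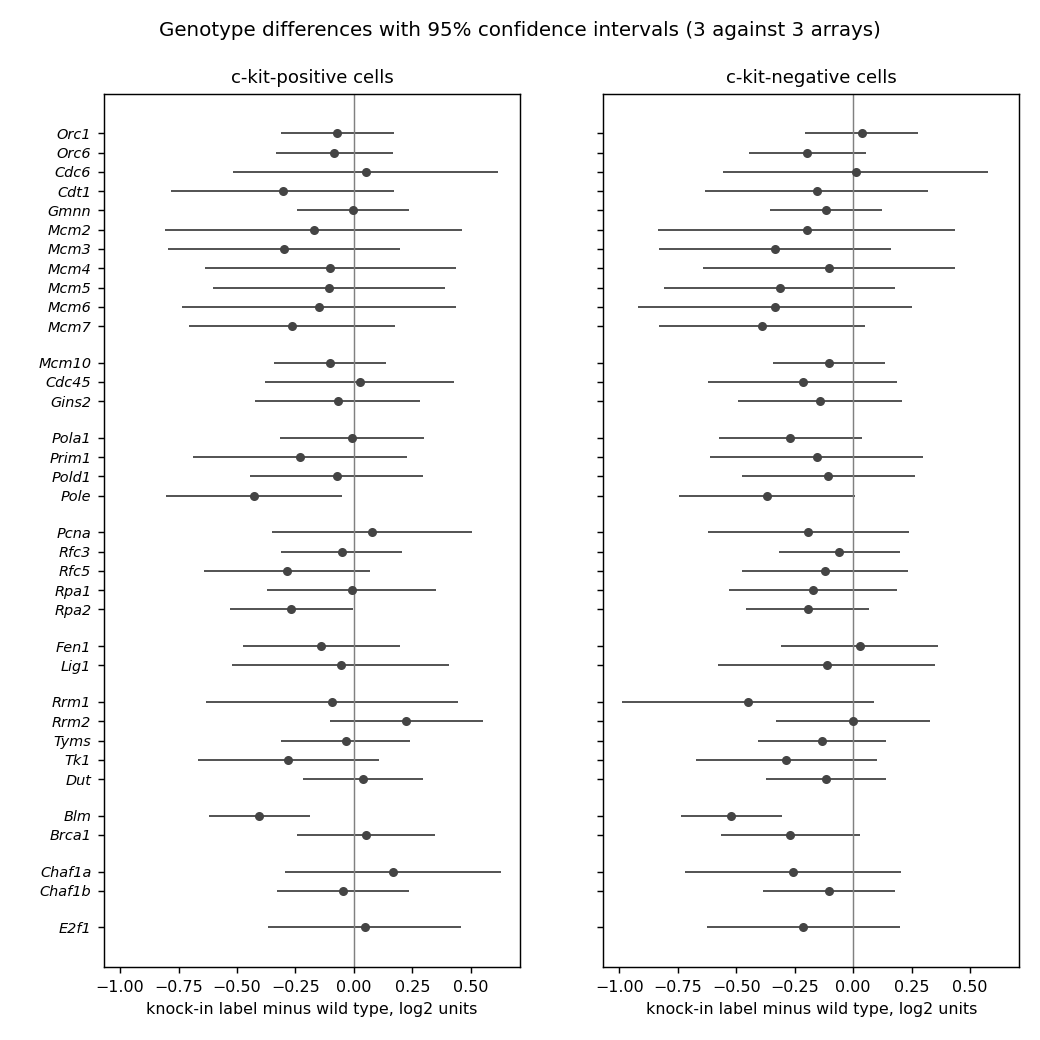
Knock-in label minus wild type (x axis, log2 units) for the 35 tested members in c-kit-positive (left) and c-kit-negative cells (right), 3 arrays against 3, with 95% confidence intervals. All intervals include 0 except those of Pole, Rpa2 and Blm on the left and of Blm on the right, which lie below 0.

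Single leukaemias moved the members together. The array of leukaemia 85 was the lowest of its fraction for 24 of 35 members among positive and 26 among negative arrays. Leukaemia 79 was the highest for 15 and 27. As a median deviation from each gene's mean over the 12 arrays, the members ranged from -0.65 on the negative array of leukaemia 85 to 0.39 on the positive array of leukaemia 79, and the negative array of leukaemia 79 (0.06) lay above the positive array of leukaemia 85 (0.02). A list of 19 mitosis genes followed the same sort. At an adjusted p under 0.05 (limma) 19 of its 19 genes were higher in c-kit-positive cells, against 5.84% of all genes. Their median was 0.93 over both genotypes, 0.67 in wild-type and 1.17 in knock-in leukaemias. The mitosis interaction had a median of 0.50, with 0 genes called (0% of all genes). At an unadjusted p under 0.05, 6 had a larger and 0 a smaller difference under the knock-in label (1.21% and 1.02% of all genes). Myeloid markers differed between the fractions in both directions. Of 10 genes, 4 were higher (Mpo, Elane, Prtn3 and Ctsg) and 2 lower (Ptprc and Itgam) in c-kit-positive cells (5.84% and 2.41% of all genes). Their part in the replication differences was not tested.

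**Figure D4:**
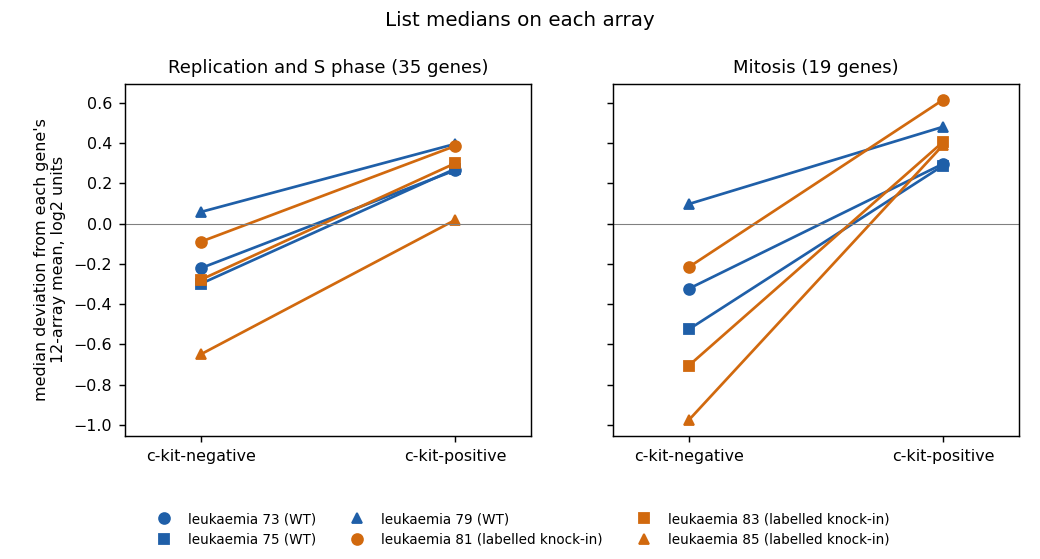
Median deviation of the 35 replication members (left) and 19 mitosis genes (right) from each gene's 12-array mean (y axis, log2 units) in both fractions, 1 line per leukaemia. Every line rises from c-kit-negative to c-kit-positive cells, and leukaemia 85 has the lowest negative array in both panels.

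Other genes of the pathway gave a wider view. The 92 tested had a median difference of 0.40 over both genotypes (all genes -0.03). Of these, 47 were higher in c-kit-positive cells and 1 was lower, against 5.84% and 2.41% of all genes. Among them Fancd2, which acts at interstrand crosslinks, was higher by 0.74 (SE 0.08, adjusted p = 0.000217, limma), and Asf1b, a histone chaperone that feeds chromatin assembly, by 1.03 (SE 0.14). Topbp1 (0.66), Ticrr (0.82) and Dbf4 (0.60), which act in origin firing, were higher, as were Dtymk (0.78), a thymidylate kinase, and Atad5 (0.63), which unloads PCNA. By role, 7 of 16 licensing and firing genes, 13 of 22 polymerase and fork genes, 6 of 14 nucleotide genes, 8 of 15 repair genes, 7 of 7 chromatin genes and 6 of 18 G1 to S regulators were higher. Their median differences were 0.32, 0.50, 0.37, 0.33, 0.80 and 0.36 in that order. The lead of nucleotide supply among the members was therefore not seen in these other genes, where the chromatin and the polymerase and fork genes had larger medians.

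With the replicate block 66 of these other genes were higher (13.0% of all genes) and 4 lower. Without the block, Samhd1, the phosphohydrolase that degrades deoxynucleotides, was the 1 gene that was lower. Its level was 7.39, 7.73 and 7.92 in the c-kit-positive cells of leukaemias 73, 75 and 79, and 7.82, 7.74 and 7.41 in those of leukaemias 81, 83 and 85. It was 8.65, 8.67 and 8.66 in the c-kit-negative cells of leukaemias 73, 75 and 79, and 9.69, 9.38 and 8.83 in those of leukaemias 81, 83 and 85. Every positive array lay below every negative array, the reverse of Rrm1, Rrm2 and Tk1. The difference was -1.31 (SE 0.14, 2.48-fold lower, adjusted p = 0.000177, limma). In wild-type leukaemias Samhd1 (-0.97) was the 1 lower gene beside Fancd2 and Dtymk as higher ones (0.371% and 0.397% of all genes). In knock-in leukaemias 15 genes were higher and Samhd1 (-1.65) was lower (1.13% and 0.752% of all genes). The wild-type call for Samhd1 was lost in 6 settings, among them those without leukaemia 73, 75, 79 or 83. Between genotypes 0 of these 92 genes passed in either fraction. The smallest p in c-kit-positive cells went to Dctd, a deoxycytidylate deaminase (-0.72), to E2f2 (0.47) and to Shmt2, the mitochondrial serine hydroxymethyltransferase (-1.16).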

How the data were processed

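Log2 RMA values of 41345 probe sets on 12 Affymetrix arrays were deposited, made by the authors with RMA in Affymetrix Expression Console, per the submitters' processing notes, which give no versions. They were used as deposited. A probe set was used if its annotation gave 1 symbol (23521 probe sets), and the one with the highest mean stood for a gene. A gene was tested if 3 or more arrays exceeded log2 4.61, which is the 25th percentile of all values. Limma 3.58.1 (R 4.3.3, statmod 1.5.0) fitted 4 group means to the 12 arrays, and, for genotype over both fractions, the means of 6 leukaemias. Tests were two-sided, adjusted by Benjamini-Hochberg over 19152 genes, with a threshold of 0.05. After group means were removed, both arrays of a leukaemia correlated at 0.279 to 0.601, and the shared leukaemia number in the titles gave the pairing for the replicate block. For genotype comparisons the block was a single correlation between both arrays of a leukaemia, estimated over all genes (0.353). For c-kit comparisons and the interaction, each leukaemia had its own term in the model. The code was tested on simulated data. The members and gene lists were chosen with earlier results of these data known. Values on every array are given for the 12 members with the smallest adjusted p in any comparison and the best of each role, and Fen1 was added after its values were seen. Alternatives were quantile normalization, centring of each array, other filters, the mean of all probe sets, the block, the compared groups only, an intensity trend, and leaving out each leukaemia. Arrays give no depth, so their number limits the precision.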

Additional observations from a re-analysis of the deposited data

How the results depend on the processing

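The median genotype difference of the members in c-kit-positive cells changed sign with a leukaemia left out (-0.13 to 0.04, the highest without leukaemia 85). The other medians of the members kept their sign, and the counts of genotype and of interaction calls stayed at 0, under every alternative that was run. Counts of c-kit calls moved. For wild-type leukaemias (2 members), the count was 1 with each array centred on its median, 21 with the replicate block, 13 with the compared groups only, and 0 to 14 with a leukaemia left out. For knock-in leukaemias (7 members), it was 12 after quantile normalization, 4 with each array centred, 28 with the replicate block, 2 with the compared groups only, and 1 to 7 with a leukaemia left out. Over both genotypes (22 members), it was 8 to 24 with a leukaemia left out. It was 26 to 31 when the block was kept, a combination chosen after seeing the data. Mcm7, Mcm10, Pole, Rrm1, Rrm2, Tk1 and Blm were called in all 14 settings. The cause of the shifts in these counts was not tested. The replicate block changed no genotype call of a member.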
